A study of Mus musculus with 21 samples.

Results

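Crush of the optic nerve at P1 was examined by setting 3 crushed retinas (P1_ONC, replicates 1, 2 and 4) against 4 uncrushed retinas (P1_NTC, replicates 1 to 4), all taken on postnatal day 1 and the crushed ones 6 hours after the operation. Every gene of the deposited tables other than the Y-linked Kdm5d was taken, which gave 45 of 46 genes in 7 of 21 samples. The study asked which genes change in the mouse retina around birth and after injury of its nerve, and sequenced polyadenylated RNA of whole retinas at E20, P1 and P3 with and without crush. All mice were wild-type C57BL/6, each library came from 1 retina, and mice of 1 age came from 1 litter. P1_ONC pups were cooled on ice for anesthesia, had the nerve pinched 0.5 mm behind the eye for 5 seconds and were kept warm afterwards. P1_NTC pups were naïve controls, and effects of the ice, the anesthesia and the operation itself cannot be told apart from those of the crush. The sources used here do not say which retinas came from the same animal, and p-values measure only the spread between these libraries.

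The optic nerve carries the axons of retinal ganglion cells, and its crush interrupts these axons while the cell bodies stay in the retina. Neurons answer injury or strong stimulation with immediate early genes, whose transcription needs no new protein and whose products, such as the FOS and EGR proteins, are themselves transcription factors. At birth the mouse retina still holds dividing progenitors, rods are starting to form under the control of NRL, and most photoreceptor proteins are still scarce. A library of whole retina mixes all these cells, so that fewer cells of a type and less RNA per cell cannot be told apart. No defining gene of ganglion cells is among the genes described.

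Levels are given as FPKM, fragments per kilobase of gene length, scaled to the assigned fragments of the library. The library totals implied by counts, FPKM and gene length ran from 15915794 to 17771487 fragments in P1_ONC and from 15699321 to 19064906 in P1_NTC. The tables hold genes that the study named for a change, and these took 0.0794% to 0.0919% of the fragments in P1_ONC and 0.0836% to 0.0961% in P1_NTC. Of the 45 genes, 42 had at least 10 fragments over the 7 libraries and were tested together with Kdm5d. The other 3 were Lcn2 with 0 fragments in P1_ONC and 2 in P1_NTC, Gm4981 with 2 and 5, and AW822073 with 0 in every library. The retinal label was met by Foxn4 and Atoh7 of progenitors, at 29.1 FPKM or more in every library, and by Nrl of rod precursors. Kdm5d had 1059, 0 and 1018 fragments in P1_ONC replicates 1, 2 and 4, against 666, 658, 0 and 1 in P1_NTC replicates 1 to 4, so each group held libraries with and without it. P1_NTC replicates 3 and 4 stood apart from replicates 1 and 2 in many genes. Values of called genes that moved by over 1.5 times, or lost their call, without these replicates are given both ways. Markers of neighbouring tissues were measured beside the retinal genes. The lens gene Cryaa was at 2.82 to 16.1 FPKM in P1_ONC and 0.0230 to 1.17 FPKM in P1_NTC. Ttr and Slco1a4, used for pigment epithelium, summed to 0.739 to 2.61 FPKM in P1_ONC and 4.36 to 21.7 FPKM in P1_NTC. Mlc1 and Pax2, used for glia of the optic nerve head, summed to 1.37 to 4.97 FPKM in P1_ONC and 2.42 to 4.85 FPKM in P1_NTC. Their part in the other results was not tested.

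Among the genes that rose, 4 whose products act in signal-driven transcription are shown with the 250 bases before and 50 bases after their annotated start, because the factors these genes encode bind short motifs of this kind. RefSeq gives such a window on the build GRCm38.p6 for 33 of the 45 genes, and the first one listed for each gene is used. Capitals mark matches on either strand to a cAMP response element (TGACGTCA), an AP-1 site (TGACTCA), an EGR site (GCGGGGGCG), a CArG box or an NF-kB site. The windows lie at chr7:19309996-19310295 on the minus strand for Fosb, chr12:85473640-85473939 on the plus strand for Fos, chr6:53287053-53287352 on the plus strand for Creb5 and chr19:46304487-46304786 on the plus strand for Nfkb2.
Fosb: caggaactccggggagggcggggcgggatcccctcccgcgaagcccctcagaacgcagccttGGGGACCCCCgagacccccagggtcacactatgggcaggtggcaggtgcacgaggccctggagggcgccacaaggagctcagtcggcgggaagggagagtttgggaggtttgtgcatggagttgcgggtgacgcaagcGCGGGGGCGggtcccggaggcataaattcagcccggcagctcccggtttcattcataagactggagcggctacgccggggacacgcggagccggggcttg
Fos: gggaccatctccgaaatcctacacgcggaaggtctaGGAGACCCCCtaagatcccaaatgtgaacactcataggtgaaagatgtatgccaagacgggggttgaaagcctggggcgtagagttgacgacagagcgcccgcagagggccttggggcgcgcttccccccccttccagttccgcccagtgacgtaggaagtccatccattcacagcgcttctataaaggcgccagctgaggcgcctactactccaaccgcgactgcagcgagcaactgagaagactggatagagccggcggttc
Creb5: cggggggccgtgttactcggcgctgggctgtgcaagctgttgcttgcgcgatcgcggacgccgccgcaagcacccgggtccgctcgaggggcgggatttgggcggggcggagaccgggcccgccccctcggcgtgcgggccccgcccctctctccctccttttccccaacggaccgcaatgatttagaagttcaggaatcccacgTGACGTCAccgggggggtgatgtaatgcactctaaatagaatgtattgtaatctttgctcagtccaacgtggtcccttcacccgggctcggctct
Nfkb2: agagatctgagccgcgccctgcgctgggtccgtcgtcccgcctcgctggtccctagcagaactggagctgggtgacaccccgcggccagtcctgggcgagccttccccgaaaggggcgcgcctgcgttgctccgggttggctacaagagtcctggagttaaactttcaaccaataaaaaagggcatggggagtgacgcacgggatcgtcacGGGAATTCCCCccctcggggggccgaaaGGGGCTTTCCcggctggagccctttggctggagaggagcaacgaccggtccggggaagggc
In Fosb the capitals are an NF-kB match from base −188 to −179 and an EGR match from −50 to −42, counted from the start. The Fos window held 1 NF-kB match from −214 to −205. In Creb5 they mark a cAMP response element from −45 to −38. Nfkb2 had 3 NF-kB matches, of which those from −39 to −30 and from −38 to −29 overlap, and the last runs from −11 to −2. Of all 27025 promoter windows of this length, 1.88% hold the cAMP response element, 5.17% the AP-1 site, 2.92% the EGR site, 1.57% the CArG box and 8.18% the NF-kB site. Among the 33 windows of the genes described, the cAMP response element was found in 1, the AP-1 site in 3 (Cryaa, Gngt1 and Gstp2), the EGR site in 1, the CArG box in 1 (Gstp2) and the NF-kB site in 7. These matches describe the letters in the windows only.

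After crush at P1, 10 genes rose and 12 fell. All immediate early genes rose, and so did Creb5, Nfkb2 and the zinc finger genes Zfp692 and Zfp296. Among the genes that fell were regulators of the developing retina, the rod factor Nrl and the pair Ttr and Slco1a4. These calls needed more than a 1.5-fold difference and an adjusted p below 0.1 in edgeR's two-sided quasi-likelihood test, with Benjamini-Hochberg adjustment over all genes tested. Calls of higher genes made up 23.3% of the 43 genes tested, and calls of lower genes 27.9%. The levels of the groups did not overlap in 11 higher genes (25.6%) and in 11 lower genes (25.6%). The median log2 fold change over the 42 genes described and tested was −0.02. The study named 6 of the genes for crush at P1 on these libraries, and 4 of them rose and 2 fell here, which is not independent evidence of their direction. The others were named for their change with age or for crush at E20. The study's age genes were those changed in common across E20, P1 and P3, so the P1_NTC libraries entered that choice too.

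All 3 immediate early genes listed rose after the crush. Calls of higher genes made up 23.3% of all 43 genes tested. Egr1 was named by the study for crush at P1 on these libraries, so its rise is not independent evidence. Fosb was named for crush at E20 and Fos for change with age. Fosb encodes a partner of JUN proteins in the AP-1 factor (ENSMUSG00000003545, mm10 chromosome 7, 19302696 to 19310051, minus strand). It was at 2.42, 1.78 and 1.15 FPKM in P1_ONC, against 0.0371, 0.0377, 0.0924 and 0.0612 FPKM in P1_NTC. Every crushed retina lay far above every uncrushed one, and the fitted ratio was 30.4-fold (log2 fold change 4.93, SE 0.43, adjusted p = 0.00025 with edgeR). Without P1_NTC replicates 3 and 4 the log2 fold change was 5.53. The gene was nearly silent in uncrushed retinas, with 25 fragments in 4 libraries.

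Fos, which encodes the namesake of the FOS proteins, lies on chromosome 12 (ENSMUSG00000021250, 85473890 to 85477273, plus strand). Its levels were 8.31, 7.74 and 9.45 FPKM in P1_ONC and 0.886, 0.551, 1.27 and 0.758 FPKM in P1_NTC. The crushed retinas were close to each other and far above the controls, with a log2 fold change of 3.29 (SE 0.31, adjusted p = 0.00025 with edgeR). Egr1, a zinc finger factor induced by growth factors and activity, was at 4.23, 5.74 and 4.30 FPKM in P1_ONC, against 1.29, 1.46, 1.02 and 0.682 FPKM in P1_NTC. The groups again did not overlap, and the log2 fold change was 2.10 (SE 0.30, adjusted p = 0.00137 with edgeR). Fos was the most abundant of the 3 after crush, whereas in uncrushed retinas Egr1 had the higher FPKM in replicates 1 and 2 and Fos in replicates 3 and 4.

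Of the 3 genes of injury, stress and inflammation, Nfkb2 rose. It encodes p100, the precursor of the NF-kB subunit p52, and its promoter held the most NF-kB matches among the windows shown above. Its levels were 1.17, 0.974 and 1.08 FPKM in P1_ONC, against 0.176, 0.358, 0.526 and 0.562 FPKM in P1_NTC. Crushed retinas lay above all uncrushed ones, although the controls themselves spread widely (log2 fold change 1.40, SE 0.38, adjusted p = 0.0198 with edgeR). Without P1_NTC replicates 3 and 4 the log2 fold change was 1.997. Nfkb2 shares 18.11% of its exon bases with genes on the opposite strand. The strand setting of the counting is not stated, so reads of such pairs cannot be told apart, and 11 of the 45 genes share exon bases with another gene. Gstp2, a glutathione S-transferase, had 3 fragments in P1_ONC and 19 in P1_NTC, where replicates 1 and 2 had none. Its summed counts per library total were 4.70 times lower in P1_ONC (95% interval 1.38 to 24.8, counting error only), and the test did not call it (log2 fold change −2.07, SE 1.48). Lcn2, which encodes an acute-phase protein of the lipocalin family, was at or under 3 fragments in both groups, so no fold is given.

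Creb5 encodes a bZIP factor of the ATF2 family that binds cAMP response elements, the motif marked in its own promoter window above. It was at 0.635, 0.423 and 0.702 FPKM in P1_ONC, against 0.150, 0.125, 0.174 and 0.178 FPKM in P1_NTC. The controls were tight and lay well below all crushed retinas, with a log2 fold change of 1.90 (SE 0.25, adjusted p = 0.00102 with edgeR).

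The zinc finger gene Zfp692 was the most abundant of the genes that rose. Its levels were 27.9, 24.6 and 24.7 FPKM in P1_ONC, against 9.56, 9.84, 10.5 and 10.6 FPKM in P1_NTC. The spread within each group was small beside the distance between them, and the log2 fold change of 1.35 had the smallest standard error of all genes tested (0.18, adjusted p = 0.00102 with edgeR). Zfp296, another zinc finger gene, lies 267.2 kb from Fosb on chromosome 7. It was at 0.308, 0.337 and 0.276 FPKM in P1_ONC, against 0.0284, 0.0578, 0.0257 and 0.0625 FPKM in P1_NTC. These levels rest on 32 fragments in P1_ONC and 6 in P1_NTC, a ratio of 7.19 (95% interval 2.97 to 21.0, counting error only). The test called it (log2 fold change 2.74, SE 0.34, adjusted p = 0.000937 with edgeR). That standard error is narrower than the counting interval implies, so the adjusted p overstates the certainty. Gemin7 covers 12.91% of the exon bases of Zfp296 on the opposite strand.

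Cpne1 encodes copine 1, a calcium-dependent membrane-binding protein. It was at 0.153, 0.152 and 0.0499 FPKM in P1_ONC, against 0.0128, 0.0131, 0.0116 and 0.0141 FPKM in P1_NTC. Each uncrushed retina held 1 fragment, which makes 27 fragments in P1_ONC against 4 in P1_NTC, a ratio of 9.10 (95% interval 3.17 to 35.8, counting error only). The test called it at a log2 fold change of 3.05 (SE 0.48, adjusted p = 0.00201 with edgeR). This standard error, too, is narrower than the counting interval implies. The exons of Cpne1 share 84.07% of their bases on the same strand with Rbm12 and Gm28036, so its count is uncertain. All of Egr1, Zfp692, Zfp296 and Cpne1 are among the 6 genes the study named for crush at P1.

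Outside these groups, 2 more genes rose. Impg1, which encodes a proteoglycan between photoreceptors and pigment epithelium, was at 0.710, 0.426 and 0.574 FPKM in P1_ONC, against 0.303, 0.130, 0.202 and 0.298 FPKM in P1_NTC. The groups did not overlap, and the log2 fold change was 1.28 (SE 0.35, adjusted p = 0.0198 with edgeR). Cryaa, the lens chaperone alpha A-crystallin, which injured retinas can also express, was at 8.19, 16.1 and 2.82 FPKM in P1_ONC, against 0.159, 0.0230, 0.185 and 1.17 FPKM in P1_NTC. It spread widely within both groups, and its log2 fold change of 4.56 had a standard error of 1.14 (adjusted p = 0.0160 with edgeR). Single libraries moved that value, to 3.85 without P1_ONC replicate 2 and 6.16 without P1_NTC replicate 4, and it was 6.59 without P1_NTC replicates 3 and 4. Carry-over of lens tissue in the dissection was not tested, and Cryaa is the only gene used here for the lens. An antisense gene covers 13.15% of its exon bases.

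**Figure D1:**
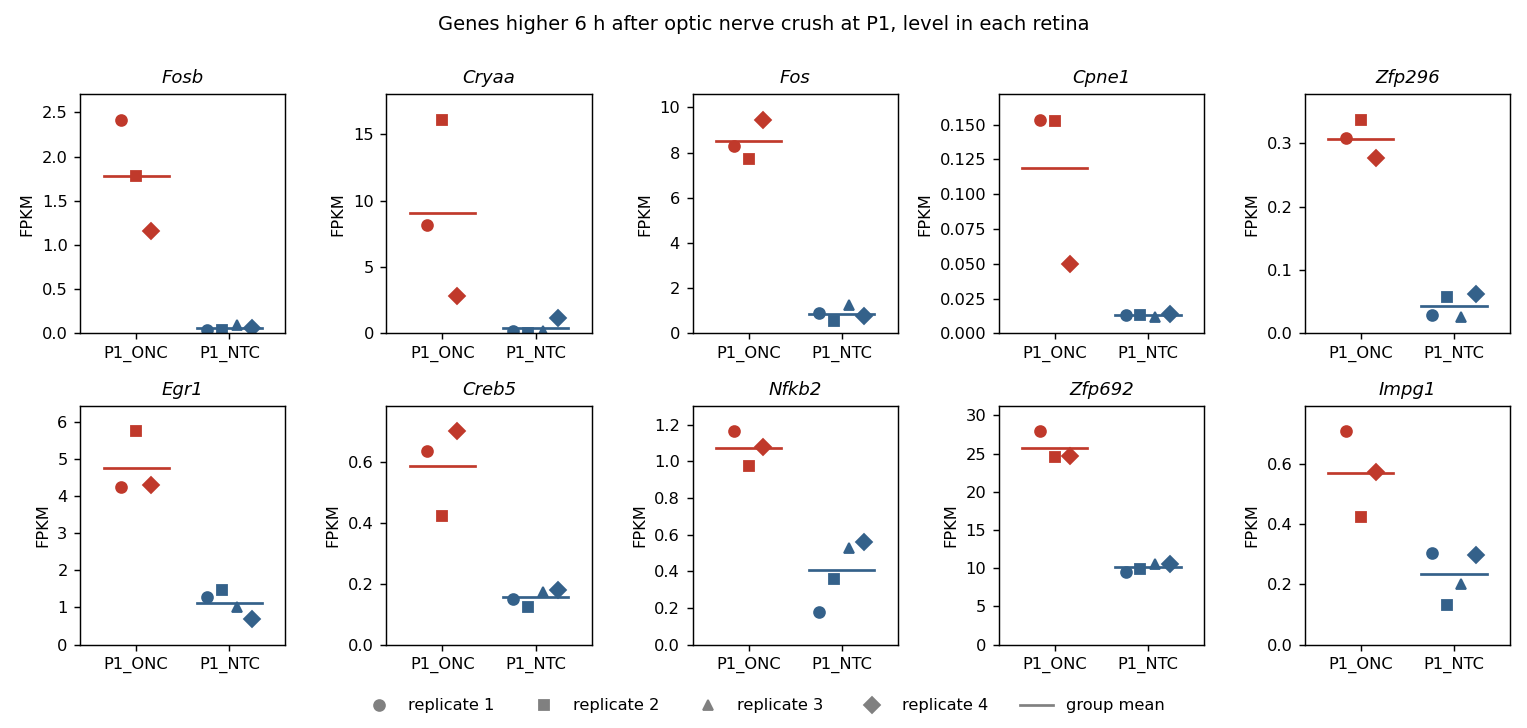
Level of the 10 genes called higher after crush in each retina, in FPKM on linear axes that start at 0, with P1_ONC at left and P1_NTC at right of each panel. Symbols stand for replicates and lines for group means. In every panel the 3 crushed retinas lie above the 4 uncrushed ones, tightly in Zfp692 (24.6 to 27.9 against 9.56 to 10.6 FPKM) and widely spread in Cryaa.

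Among the 10 genes listed for the embryonic retina and its progenitors, 4 fell and none rose, with a median log2 fold change of −0.45. Calls of lower genes made up 27.9% of all 43 genes tested. Sall3 and Sox1 were named by the study for crush at P1 on these libraries, so their fall is not independent evidence. Fgf3, a secreted growth factor of the early eye, was at 3.19, 4.53 and 3.29 FPKM in P1_ONC, against 8.54, 9.07, 10.8 and 8.30 FPKM in P1_NTC. The groups lay far apart with little spread in either, and the log2 fold change was −1.32 (SE 0.23, adjusted p = 0.00314 with edgeR). Its neighbour Fgf15, 52.09 kb away on chromosome 7, had 50.03, 51.9 and 38.5 FPKM in P1_ONC, against 39.5, 46.5, 40.0 and 24.8 FPKM in P1_NTC. Fgf15 was not called (log2 fold change 0.31, SE 0.26). It shares 25.74% of its exon bases with antisense genes, 1 of them Gm39119.

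Sall3, a zinc finger factor needed for horizontal and cone cells in the mouse retina, was at 2.96, 2.83 and 1.98 FPKM in P1_ONC, against 6.29, 6.998, 16.3 and 12.8 FPKM in P1_NTC. All crushed retinas lay below all controls, of which replicates 3 and 4 were the highest (log2 fold change −2.03, SE 0.41, adjusted p = 0.00681 with edgeR). Without those replicates the log2 fold change was −1.36 (adjusted p = 0.0122 with edgeR). Irx1, a homeobox factor of the Iroquois family, was at 0.432, 0.830 and 1.22 FPKM in P1_ONC, against 1.46, 1.35, 1.86 and 1.80 FPKM in P1_NTC. The groups stood apart by a small gap, and the log2 fold change was −0.96 (SE 0.36, adjusted p = 0.0622 with edgeR). Its call was lost without P1_NTC replicate 3 (adjusted p = 0.127 with edgeR), P1_NTC replicate 4 (0.119), P1_ONC replicate 1 (0.127) or P1_ONC replicate 2 (0.147). Irx2, 665.1 kb away on chromosome 13, was at 2.74, 4.01 and 4.41 FPKM in P1_ONC, against 4.62, 5.10, 2.46 and 2.95 FPKM in P1_NTC, with full overlap.

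Sox1, a SOX factor of neural progenitors, was scarce in every library. Its levels were 0.0130, 0.0118 and 0.0349 FPKM in P1_ONC, against 0.0479, 0.183, 0.0651 and 0.132 FPKM in P1_NTC. With 5 fragments in P1_ONC and 35 in P1_NTC, the summed counts per library total were 5.19 times lower in P1_ONC (95% interval 2.02 to 17.0, counting error only). The test called it at a log2 fold change of −2.32 (SE 0.64, adjusted p = 0.0198 with edgeR), which was −2.96 without P1_ONC replicate 4. Here as well the standard error is narrower than the counting interval implies. Sox1 and Sall3 complete the 6 genes the study named for crush at P1.

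The other members of the list were not called. Foxn4, a forkhead factor of progenitors that form amacrine and horizontal cells, was at 36.6, 40.8 and 32.1 FPKM in P1_ONC, against 39.3, 39.9, 38.4 and 29.9 FPKM in P1_NTC. Atoh7, the bHLH factor that makes progenitors competent to form ganglion cells, was at 33.6, 46.9 and 34.1 FPKM in P1_ONC, against 29.5, 29.1, 36.9 and 32.8 FPKM in P1_NTC. In both genes the groups overlapped, at log2 fold changes of −0.01 (SE 0.20) and 0.25 (SE 0.21). Aldh1a3, an enzyme of retinoic acid synthesis, was at 12.9, 16.8 and 7.25 FPKM in P1_ONC, against 12.8, 13.1, 17.9 and 14.8 FPKM in P1_NTC. Sox14, a SOX factor of neurons, was at 0.243, 0.194 and 0.136 FPKM in P1_ONC, against 0.505, 0.371, 0.254 and 0.0617 FPKM in P1_NTC. Its controls spanned the crushed retinas because replicate 4 was low.

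Of 5 photoreceptor genes, Impg1 rose, Nrl fell and 3 were not called, with a median log2 fold change of 0.24. Nrl, the bZIP factor that directs the rod fate, was the most abundant gene that fell (ENSMUSG00000040632, chromosome 14, 55518978 to 55524981, minus strand). It was at 31.7, 24.7 and 26.5 FPKM in P1_ONC, against 41.1, 42.0, 42.4 and 45.3 FPKM in P1_NTC. The groups lay well apart, but the change was the smallest of all calls, with a log2 fold change of −0.63 (SE 0.19, adjusted p = 0.0267 with edgeR). Its 1.54-fold difference lies just past the 1.5-fold limit, and without P1_ONC replicate 2 it fell short of that limit (log2 fold change −0.55).

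Gngt1, a subunit of the rod G protein transducin, was at 2.86, 2.26 and 2.43 FPKM in P1_ONC, against 1.24, 1.41, 2.39 and 3.50 FPKM in P1_NTC. Guca1a, which activates guanylate cyclase in photoreceptors, was at 2.16, 1.90 and 4.45 FPKM in P1_ONC, against 1.59, 1.96, 4.99 and 7.52 FPKM in P1_NTC. In both genes the crushed retinas fell inside the wide range of the controls. Cnga1, the rod cyclic nucleotide-gated channel, was at 0.139, 0.127 and 0.116 FPKM in P1_ONC, against 0.128, 0.121, 0.0497 and 0.0705 FPKM in P1_NTC. It was scarce in every library and overlapped between the groups.

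Among 7 other transcription factors, Creb5 rose, Spdef and Bhlhe41 fell and 4 were not called. Spdef, an ETS factor known from epithelia, was at 0.245, 0.273 and 0.513 FPKM in P1_ONC, against 0.729, 1.02, 0.933 and 1.22 FPKM in P1_NTC. The groups did not overlap, and the log2 fold change was −1.49 (SE 0.34, adjusted p = 0.0114 with edgeR). Bhlhe41, a bHLH repressor tied to the circadian clock, was at 0.542, 0.238 and 0.385 FPKM in P1_ONC, against 0.715, 0.587, 1.26 and 1.02 FPKM in P1_NTC. The highest crushed retina lay just under the lowest control (log2 fold change −1.21, SE 0.39, adjusted p = 0.0358 with edgeR). Its call was lost without P1_ONC replicate 2 (adjusted p = 0.108 with edgeR), and 19.05% of its exon bases are shared with Gm43909 on the opposite strand.

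Nfatc4, a factor that calcium signals bring to the nucleus, was at 2.41, 2.61 and 2.21 FPKM in P1_ONC, against 2.28, 2.01, 2.41 and 1.65 FPKM in P1_NTC. Etv4, an ETS factor downstream of FGF signals, was at 10.6, 9.79 and 11.2 FPKM in P1_ONC, against 7.63, 8.05, 10.8 and 8.89 FPKM in P1_NTC. Both overlapped between the groups. The nuclear receptor gene Hnf4g was at 0.311, 0.239 and 0.300 FPKM in P1_ONC, against 0.639, 0.291, 0.279 and 0.315 FPKM in P1_NTC. Pax7, a paired box factor, was at 0.225, 0.332 and 0.211 FPKM in P1_ONC, against 0.376, 0.372, 0.170 and 0.0978 FPKM in P1_NTC. Neither of these was called, and in Pax7 the controls lay on both sides of the crushed retinas.

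The zinc finger genes Zfp97 and Zfp960 lie 31.79 kb apart on chromosome 17 and both fell. Zfp97 was at 0.492, 0.512 and 0.252 FPKM in P1_ONC, against 1.45, 0.922, 1.27 and 1.45 FPKM in P1_NTC (log2 fold change −1.60, SE 0.33, adjusted p = 0.00681 with edgeR). Zfp960 was at 0.518, 0.579 and 0.359 FPKM in P1_ONC, against 1.35, 0.884, 1.00 and 1.55 FPKM in P1_NTC (log2 fold change −1.30, SE 0.30, adjusted p = 0.0115 with edgeR). In both genes all crushed retinas lay below all controls. The sequences of this gene family are much alike, so the division of fragments between the pair is uncertain and they are not separate evidence.

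Of the 6 remaining genes, 4 were tested and Dio3os fell. Dio3os, a noncoding RNA that starts beside the gene of a thyroid hormone deiodinase, was at 2.43, 4.15 and 3.51 FPKM in P1_ONC, against 6.06, 7.14, 5.55 and 5.45 FPKM in P1_NTC. Its groups did not overlap (log2 fold change −0.85, SE 0.25, adjusted p = 0.0267 with edgeR). Gm39119, a noncoding RNA antisense to Fgf15, was at 3.24, 3.07 and 4.20 FPKM in P1_ONC, against 2.56, 2.73, 2.48 and 1.27 FPKM in P1_NTC. Its groups did not overlap either, but the test did not call it (log2 fold change 0.63, SE 0.30, adjusted p = 0.141 with edgeR). Ecel1, a peptidase of neurons, was at 0.574, 1.08 and 0.9003 FPKM in P1_ONC, against 0.778, 1.11, 1.02 and 0.801 FPKM in P1_NTC. Aspg, an asparaginase, was at 0.125, 0.439 and 0.208 FPKM in P1_ONC, against 0.230, 0.301, 0.209 and 0.163 FPKM in P1_NTC. Neither changed past the test.

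Ttr, the thyroid hormone carrier transthyretin, is made in the eye mainly by the pigment epithelium. It was at 0.773, 2.58 and 0.739 FPKM in P1_ONC, against 4.32, 4.74, 21.0 and 16.1 FPKM in P1_NTC. All crushed retinas lay below all controls, while P1_NTC replicates 3 and 4 were several times above replicates 1 and 2 (log2 fold change −3.07, SE 0.81, adjusted p = 0.0194 with edgeR). Without those controls the log2 fold change was −1.72 (adjusted p = 0.0557 with edgeR), and without P1_ONC replicate 2 it was −3.92. Slco1a4, an organic anion transporter, was at 0.00980, 0.0268 and 0 FPKM in P1_ONC, against 0.0361, 0.0184, 0.613 and 0.288 FPKM in P1_NTC. It had 4 fragments in P1_ONC and 110 in P1_NTC, and was the single called gene whose groups overlapped (log2 fold change −4.18, SE 1.48, adjusted p = 0.0509 with edgeR). Its call was lost without P1_NTC replicate 3 (adjusted p = 0.110 with edgeR), P1_ONC replicate 1 (0.156) or P1_ONC replicate 4 (0.152), and without P1_NTC replicates 3 and 4 its log2 fold change was −1.09. Without P1_ONC replicate 2 it was −5.38. For the optic nerve head, Mlc1, an astrocyte membrane protein, was at 1.122, 0.715 and 3.03 FPKM in P1_ONC, against 2.34, 3.01, 1.52 and 1.57 FPKM in P1_NTC. Pax2, the paired box factor of the optic stalk, was at 1.18, 0.656 and 1.93 FPKM in P1_ONC, against 1.57, 1.84, 1.24 and 0.848 FPKM in P1_NTC. Neither was called, and P1_ONC replicate 4 was the highest library in both. Without that library Mlc1 was called lower (log2 fold change −1.20, adjusted p = 0.0579 with edgeR), against −0.38 with it.

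**Figure D2:**
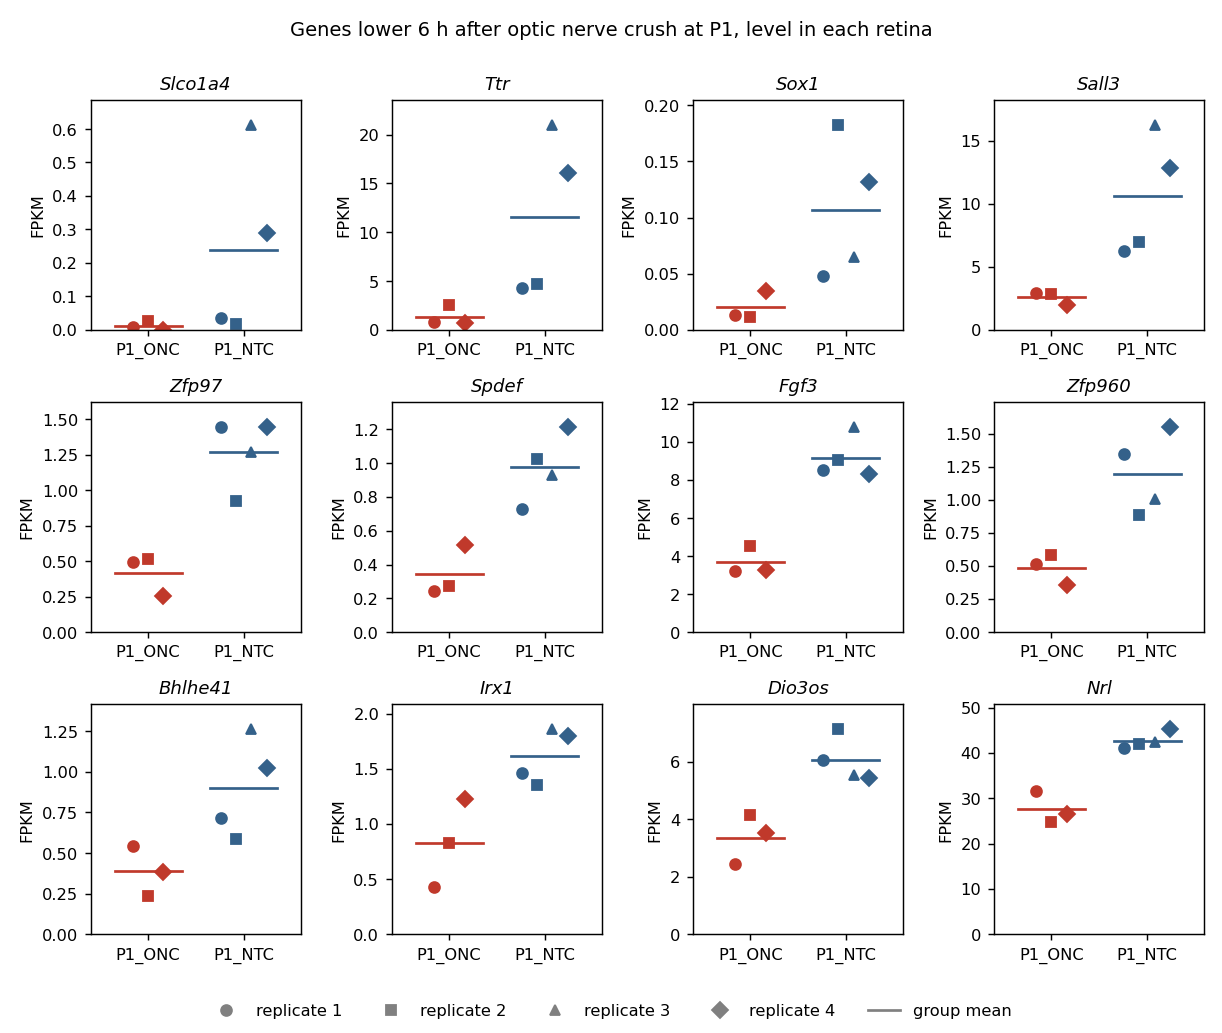
Level of the 12 genes called lower after crush in each retina, in FPKM on linear axes that start at 0, with P1_ONC at left and P1_NTC at right of each panel. Symbols stand for replicates and lines for group means. The groups stand apart in 11 panels and overlap in Slco1a4, whose 2 high controls are replicates 3 and 4.

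The fitted increases were 30.4-fold in Fosb, 23.6-fold in Cryaa, 9.76-fold in Fos and 8.26-fold in Cpne1, and Cryaa passed Fosb without P1_NTC replicate 4 (log2 fold changes 6.16 for Cryaa and 4.96 for Fosb). Fitted decreases were 18.1-fold in Slco1a4, 8.42-fold in Ttr, 4.99-fold in Sox1 and 4.09-fold in Sall3. This order rests on P1_NTC replicates 3 and 4, without which the log2 fold changes were −1.09 for Slco1a4, not called, −1.72 for Ttr and −2.43 for Sox1. The 20 genes tested and not called had log2 fold changes from −2.07 for Gstp2 to 0.63 for Gm39119. Apart from Gstp2, their standard errors ran from 0.20 for Etv4 and Foxn4 to 0.61 for Guca1a, and a missing call does not show that the groups were alike.

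**Figure D3:**
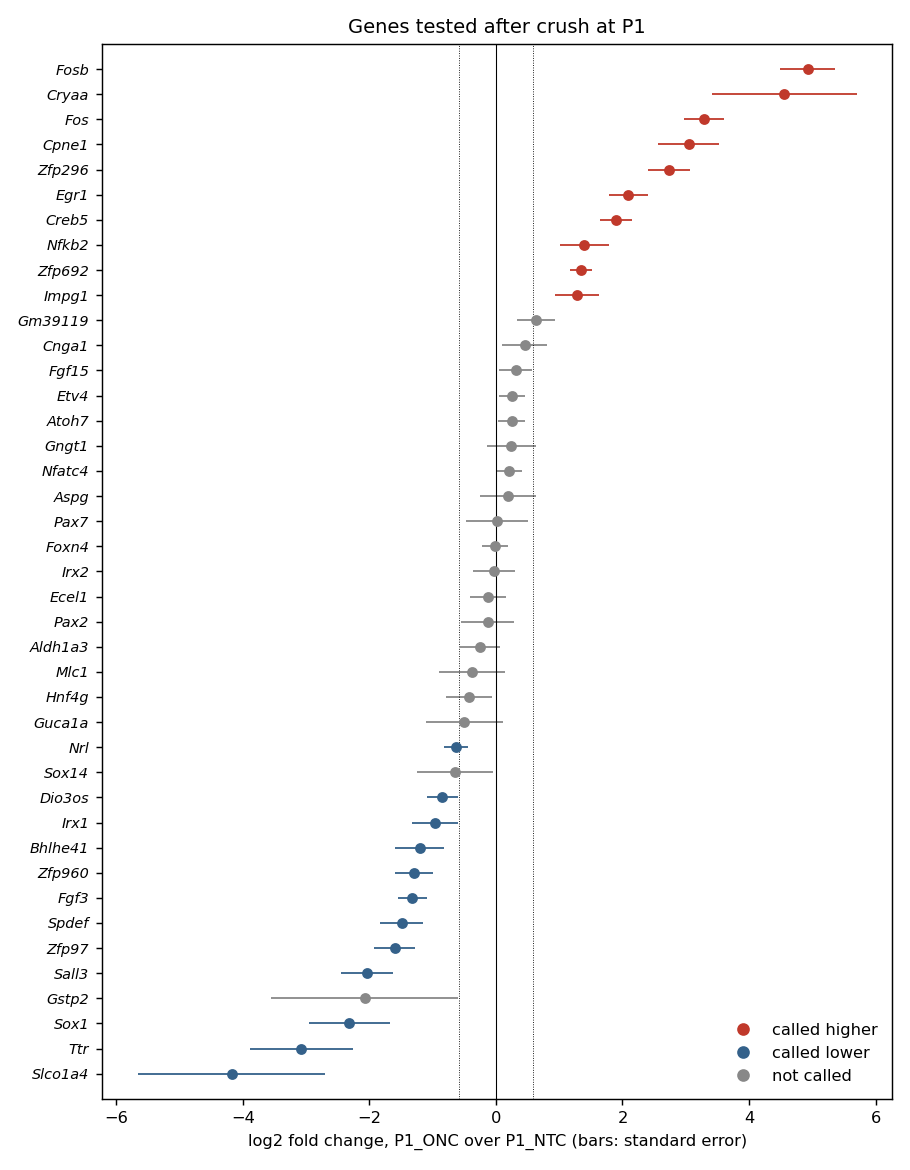
Log2 fold change of P1_ONC over P1_NTC for 41 of the 42 genes tested, ordered by size, with bars for the standard error and dotted lines at a 1.5-fold change in either direction. Red points are the 10 genes called higher, blue points the 12 called lower and grey points 19 not called, and the widest bars belong to Slco1a4, Gstp2 and Cryaa.

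Many genes split the uncrushed retinas the way Kdm5d did. In 28 of the 45 genes, P1_NTC replicates 3 and 4 lay both above or both below replicates 1 and 2, above in 17 and below in 11. Some genes would split this way by chance. No such share was computed and other pairings of the controls were not counted, so the count has no baseline. As the mean of replicates 3 and 4 over that of replicates 1 and 2, the ratio was 16.5 for Slco1a4, 7.47 for Cryaa, 4.10 for Ttr, 3.52 for Guca1a, 2.23 for Gngt1 and 2.19 for Sall3. It was 0.361 for Sox14 and 0.358 for Pax7. By chi-square over genes without Kdm5d, replicates 1 and 2 differed by 2.61 per gene and replicates 3 and 4 by 12.6, while pairs across the split differed by 25.4 to 29.1. The P1_ONC libraries did not follow this order. Replicates 1 and 4, both with Kdm5d, differed by 15.4 per gene. Across the split, replicates 1 and 2 differed by 12.3 and replicates 2 and 4 by 32.8.

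The differences were also taken within libraries with Kdm5d (P1_ONC replicates 1 and 4 against P1_NTC replicates 1 and 2) and without it (P1_ONC replicate 2 against P1_NTC replicates 3 and 4). The values are log2 ratios of mean FPKM with no test, and the second comparison holds 1 crushed retina. In 21 of the 22 called genes the groups do not overlap, which fixes the sign in both, so these ratios bear on size alone. For Fos these ratios were 3.63 with Kdm5d and 2.93 without it, for Fosb 5.58 and 4.53, for Fgf3 −1.44 and −1.08, and for Ttr −2.58 and −2.85. Among the called genes, Bhlhe41 differed most between the comparisons, at −0.49 and −2.26. Genes that were not called could point in opposite directions, as in Guca1a with 0.90 and −1.72, Gngt1 with 1.00 and −0.38, and Pax7 with −0.78 and 1.31.

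With P1_NTC replicates 3 and 4 left out, 11 genes were called higher and 10 lower. Calls were lost for Slco1a4, for Bhlhe41 (log2 fold change −0.75) and for Irx1 (−0.76). Calls were gained for Gngt1, which was higher (0.93, adjusted p = 0.0337 with edgeR), and for Sox14, which was lower (−1.19, adjusted p = 0.0431 with edgeR). With the detection of Kdm5d as a covariate the counts of calls stayed at 10 and 12.

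**Figure D4:**
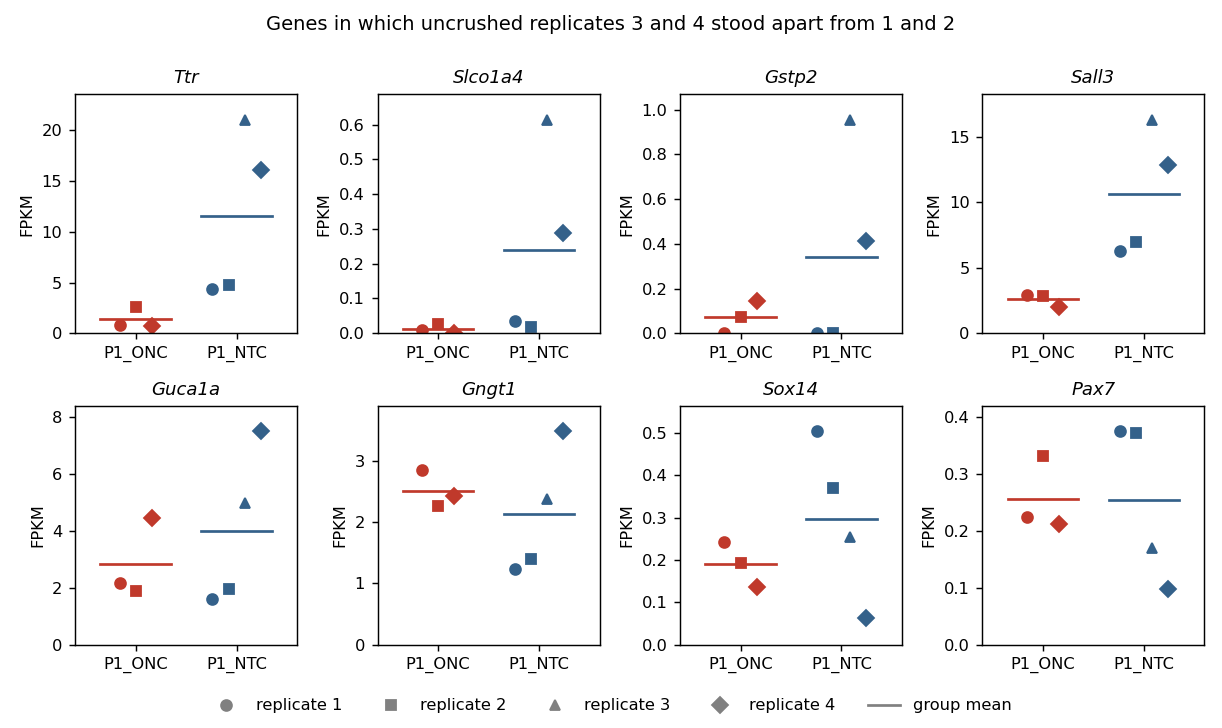
Level in each retina, in FPKM on linear axes that start at 0, of 8 genes in which P1_NTC replicates 3 and 4 lay on 1 side of replicates 1 and 2, with P1_ONC at left and P1_NTC at right. Symbols stand for replicates and lines for group means. Triangles and diamonds of P1_NTC are the highest controls in Ttr, Slco1a4, Gstp2, Sall3, Guca1a and Gngt1 and the lowest in Sox14 and Pax7.

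The effect of crush at P1 was set beside those at E20 and P3, each against the uncrushed retinas of its own age. Age and litter cannot be told apart, and the sources used here do not say whether libraries of each age were prepared together. A difference may belong to any of these. At E20 the crush is also largely confounded with Kdm5d, which had 0 fragments in all 3 E20_ONC libraries and 1135, 799 and 0 in E20_NTC replicates 1 to 3. Only E20_NTC replicate 3 is an uncrushed E20 library without Kdm5d. The test of the difference between P1 and E20 passed an adjusted p under 0.1 in 9 of 46 genes, which is 19.6%. Of these, 5 were also called after crush at P1. The study named Fosb, Gstp2, Mlc1, Etv4 and Irx1 for crush at E20 on the same libraries. Ttr, Fgf3, Gm39119 and Bhlhe41 were named for change with age, a choice that used the E20_NTC libraries. The choice of genes therefore partly fixes this comparison. With the detection of Kdm5d as a covariate 7 of the 9 passed, and Gstp2 and Mlc1 did not. Fosb had log2 fold changes of 4.93 (SE 0.43) at P1 and 2.53 (SE 0.58) at E20, a difference of 2.39 (SE 0.76, adjusted p = 0.0597 with edgeR). The Fosb difference did not pass with TMM factors (adjusted p = 0.110 with edgeR) or in 1 fit of all 6 groups (0.329). It also failed without E20_NTC replicate 1, 2 or 3, P1_NTC replicate 2 or P1_ONC replicate 1. Fos, by contrast, had 3.29 at P1 and 3.19 at E20, a difference of 0.10 (SE 0.61). For Egr1 the values were 2.10 at P1 and 0.75 at E20, and the difference did not pass (1.34, SE 0.52, adjusted p = 0.111 with edgeR).

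Fgf3 fell at P1 and had a log2 fold change of 0.13 (SE 0.32) at E20, a difference of −1.45 (SE 0.38, adjusted p = 0.0568 with edgeR). Bhlhe41 fell at P1 but rose at E20, where its log2 fold change was 1.02 (SE 0.35, adjusted p = 0.0428 with edgeR), and the difference was −2.23 (SE 0.54, adjusted p = 0.0568 with edgeR). Ttr had −3.07 at P1 and 1.15 (SE 0.94) at E20, a difference of −4.23 (SE 1.32, adjusted p = 0.0597 with edgeR), which was −2.86 with the Kdm5d covariate. Irx1 fell less at P1 (−0.96) than at E20 (−2.27), with a difference of 1.31 (SE 0.44, adjusted p = 0.0653 with edgeR). The Irx1 difference did not pass with TMM factors (adjusted p = 0.128 with edgeR), in 1 fit of all 6 groups (0.207) or with the replicate number as a block (0.125). It also failed without any of several single libraries, such as P1_ONC replicate 4 (0.191). The Fgf3 difference did not pass in 1 fit of all 6 groups (0.120), and that of Ttr failed without E20_NTC replicate 1 or P1_NTC replicate 3, among others. These differences rest on few libraries: 0 passed without E20_NTC replicate 2 (13 below 0.05 before adjustment), 1 passed without E20_NTC replicate 1, 3 without P1_NTC replicate 3 and 4 without E20_ONC replicate 2.

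Between P1 and P3 the effect differed in 0 of 46 genes (0.0%) with edgeR, although 12 were below 0.05 before adjustment, and 6 passed with DESeq2. The study left genes that also changed at P3 out of its crush candidates, so the choice of genes partly fixes this comparison. Log2 fold changes at P1 and at P3 were 4.93 and 1.41 for Fosb, 3.29 and 2.29 for Fos, 2.10 and 1.22 for Egr1, and 1.90 and 0.86 for Creb5. For the genes that fell they were −1.32 and 0.30 for Fgf3, −1.60 and −0.21 for Zfp97, −0.63 and −0.74 for Nrl, and −3.07 and −4.46 for Ttr. The P3 libraries spread more widely, as in Fos with 7.11, 5.34, 29.3 and 2.47 FPKM in P3_ONC against 0.739, 1.89, 2.51 and 3.89 FPKM in P3_NTC. The number of differences was 9 without P3_ONC replicate 3, 5 without P3_NTC replicate 1 and 1 without P3_NTC replicate 3 or 4 or P1_ONC replicate 4.

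**Figure D5:**
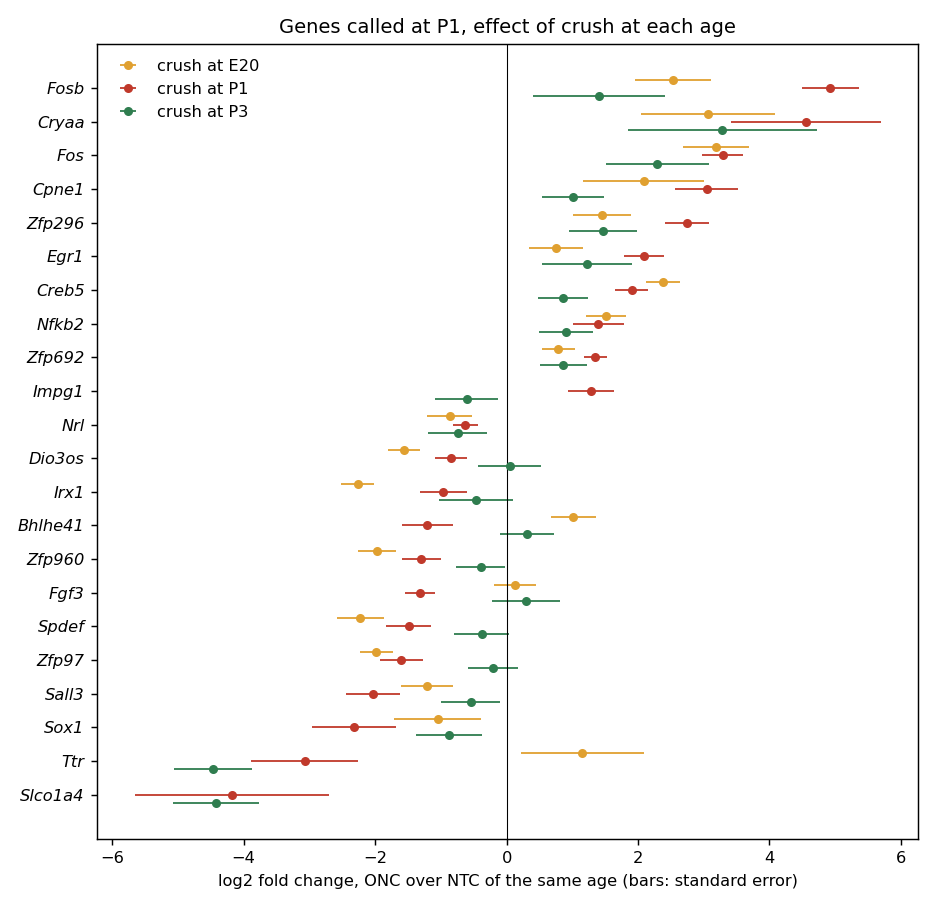
Log2 fold change of crushed over uncrushed retinas of the same age for the 22 genes called at P1, at E20 (yellow), P1 (red) and P3 (green), with bars for the standard error. Impg1 and Slco1a4 have no E20 point because they had under 10 fragments there. Fosb, Fos and Egr1 lie above 0 at every age, while Bhlhe41, Fgf3 and Ttr at E20 and Bhlhe41, Fgf3, Dio3os and Impg1 at P3 lie on the other side of 0 from P1.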

How the data were processed

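Polyadenylated RNA of whole retinas, 1 per library, was sequenced from both ends after NEBNext library preparation. Per the labels and the study's methods, the authors used HISAT2 2.0.5 on mm10, and featureCounts 1.5.0-p3 gave the deposited counts, as whole fragments per gene. The authors derived the deposited FPKM from those counts, gene length and library total. The strand setting is not given in the sources used here. Counts, FPKM and gene length together gave the library total, which was used as library size. The tables had 51 rows, of which 5 were repeats and were dropped.

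P1_ONC was compared with P1_NTC with edgeR 4.0.16 (R 4.3.3), by the quasi-likelihood F test without trend or composition factors, in genes with at least 10 counts over the 7 libraries. Differences between ages were interactions in the same model over 4 groups. The standard error is the log2 fold change over the square root of F. Where fragments were few, as in Zfp296, Cpne1 and Sox1, it fell below what counting error alone gives. All genes but Kdm5d entered the counts, the values of 1 gene that was not called are not reported here, and called genes were given with each library's level. The members and lists were chosen with earlier results of these data known. Alternatives were DESeq2 1.42.0, limma 3.58.1 on log2 FPKM (pseudocount 0.1 or 1), TMM factors, median ratios, a robust fit, other filters and thresholds, 1 fit of all 6 groups, covariates, and leaving out libraries. Another adjusted p-values over 20000 genes, taking those outside the tables as unchanged. The test was also run on simulated data with the same dispersion in every gene. The genes here spread unequally, so that run does not match them and nothing is drawn from it. Promoter windows came from RefSeq and exon overlaps from GENCODE on GRCm38, where 45 of 45 genes were found, 40 with the coordinates of the tables. Python 3.11.15 with pandas 2.3.3, numpy 2.4.6, scipy 1.17.1 and matplotlib 3.10.9 was used. Intervals of count ratios cover counting error only, since the reads carry no molecular identifiers.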

Additional observations from a re-analysis of the deposited data

Results flagged for a closer look

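In 4 of the 45 genes, 1 uncrushed retina lay far from the other 3, where chance gives about 1 in 20 genes. The gap to the nearest library, as a share of the range of P1_NTC, was 0.859 for Cryaa with replicate 4 high at 1.17 FPKM, 0.901 for Hnf4g with replicate 1 high at 0.639 FPKM, 0.832 for Gm39119 with replicate 4 low at 1.27 FPKM, and 0.849 for Foxn4 with replicate 4 low at 29.9 FPKM.

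In 9 genes the effect of crush at P1 differed from that at E20 in the test of the difference itself (edgeR, adjusted p under 0.1). The difference of log2 fold changes, P1 minus E20, was 2.39 for Fosb, −4.23 for Ttr, −1.45 for Fgf3, −2.23 for Bhlhe41 and 1.31 for Irx1, all of which were also called at P1. It was −7.02 for Gstp2, 3.11 for Mlc1, −1.06 for Etv4 and −1.24 for Gm39119, which were not called at P1. Gstp2 had 3 fragments in P1_ONC. With the detection of Kdm5d as a covariate, the difference of Gstp2 was −5.15 (adjusted p = 0.134 with edgeR) and that of Mlc1 1.996 (adjusted p = 0.140), and neither passed. Every E20_ONC library lacked Kdm5d. All 9 genes were named by the study for crush at E20 or for change with age, so their choice partly fixes this comparison.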

How the results depend on the processing

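After crush at P1 the number of genes higher was 10 and lower 12. Both counts stayed within 1.5 times of these under all alternatives but 2. With limma on log2(FPKM + 1), which shrinks the changes of scarce genes, 5 genes were higher and 6 lower. Adjusted as if 20000 genes had been tested, 0 were higher and 0 lower, and Fos and Fosb came nearest (adjusted p = 0.116 with edgeR). This adjustment takes every gene outside the tables as unchanged, which the full data need not bear out. The study's own DESeq2 test of the transcriptome called the genes it named for crush at P1, Egr1 and Zfp692 among them. As an alternative test here, DESeq2 gave 10 and 10, without Nrl and Irx1. Leaving out each library gave 10 to 10 higher and 9 to 12 lower. The correlations of same-numbered libraries were 0.269, −0.375 and −0.240 without Kdm5d. They are few and centred within groups, so they cannot decide whether the replicate numbers pair the samples. Kdm5d had 0 fragments in P1_ONC replicate 2 and 658 in P1_NTC replicate 2. For replicate 4 it had 1018 and 1. With the replicate number as a block, 9 genes were higher and 9 lower.

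For P1 against E20, the 9 differences became 0 at an adjusted p under 0.05, 5 in 1 fit of all 6 groups and 5 with the replicate block, and 0 to 13 on leaving out each library. For P1 against P3, the 0 differences became 6 with DESeq2, 7 in 1 fit of all 6 groups, 1 with the replicate block, and 0 to 9 on leaving out each library. The cause was not tested.

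In all called genes but Slco1a4 the groups do not overlap, so leaving out libraries could not reverse their sign. No called gene changed direction at P1. Genes that were not called did: Pax7 to −0.017 with TMM factors and −0.0056 with median ratios, Irx2 to 0.0094 and 0.0023 with limma after adding 0.1 and 1, and Foxn4 to 0.012 with the replicate block. Without P1_NTC replicates 3 and 4, log2 fold changes were −0.54 for Pax7, 0.68 for Guca1a and −0.040 for Aspg. Leaving out 1 library each gave −0.25 to 0.26 for Pax7, −0.54 to 0.018 for Aldh1a3, −0.33 to 0.094 for Ecel1, −0.18 to 0.15 for Irx2, −0.43 to 0.51 for Aspg, −0.58 to 0.18 for Pax2 and −0.10 to 0.071 for Foxn4. Depth limits Cpne1, Zfp296, Sox1 and Slco1a4, each with 4 to 6 fragments in its lower group.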
